A study of Mus musculus with 88 samples.

Results

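Untreated NFSa tumours were compared with untreated #8520 tumours across all genes on 8 of the 88 arrays of the series, taken by their titles as the 0 h arrays of these 2 tumours. NFSa is a mouse fibrosarcoma that arose spontaneously in a C3H/He mouse, and #8520 is a fibrosarcoma induced by radiation in a C3H mouse. Both were grown by transplantation in the hind legs of C3H/HeNrs mice, and total RNA of the tumour was hybridised to one-colour Cy5 arrays. The series irradiated 4 such tumours, these 2 and the squamous cell carcinomas NR-S1 and SCCVII, with carbon ions at 30 Gy or gamma rays at 30 or 50 Gy, and the samples were collected at 6 h, day 1 or day 3. Each beam's arm had its own untreated arrays, 2 per tumour, so the comparison holds 4 NFSa arrays (2 of the carbon-ion arm and 2 of the gamma arm) and 4 #8520 arrays (2 of each arm). None of these 8 tumours had been irradiated. Each origin is represented by 1 transplanted tumour, so spontaneous or radiation-induced origin and the identity of the tumour cannot be told apart. Whether both arrays of a group come from separate mice is not stated in the labels, and the p-values below measure the spread between these arrays only.

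Fibrosarcomas are malignant tumours of cells that resemble fibroblasts, the cells that lay down collagen and other matrix proteins, and a tumour grown in a mouse also holds host blood vessels, immune cells and, in the leg, muscle. Hox genes encode transcription factors whose combination records the position in the body from which a connective tissue cell descends, and fibroblasts keep that combination in culture. Interferons released by immune or tumour cells switch on antiviral genes, guanylate-binding proteins and the machinery that shows peptides to T cells on MHC class I molecules.

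All values below are log2 intensities, and every difference is NFSa minus #8520, so that 1 unit is a 2-fold difference in fluorescence. Per-array values are given in the order carbon-ion arm, then gamma arm. A gene was called when its Benjamini-Hochberg adjusted p in limma, with the arm as a block, was under 0.05 over the 13438 genes tested. Array medians lay between 1.05 and 1.059 intensity units, and arrays of the same tumour and arm correlated at 0.988 to 0.993 over genes, arrays of the same tumour in the other arm at 0.974 to 0.983, and arrays of the other tumour in the same arm at 0.968 to 0.971. All 11 fibroblast markers examined passed the filter on dim genes in these tumours, which does not test the fibroblast label. Vim, the mesenchymal intermediate filament, averaged 7.59 ± 0.12 in NFSa and 7.65 ± 0.12 in #8520 (SD, n = 4 arrays each). In the untreated carcinomas Vim averaged 6.94 in NR-S1 and 8.06 in SCCVII, so its level did not set the fibrosarcomas apart. The collagen I gene Col1a1, the collagen I gene Col1a2, Pdgfrb and Thy1 were called higher in NFSa, Fn1 and Dcn were called lower, and Vim, S100a4, Pdgfra, Twist1 and Prrx1 were not called.

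Of the 13438 genes, 5265 (39.2%) were called, 2217 higher in NFSa (16.5%) and 3048 lower (22.7%). The counts of called list members below are to be read beside these shares. Most differences were small, with a median absolute log2 difference of 0.23 and a 90th percentile of 0.80. A difference of at least 2-fold was called in 880 genes (6.55%), 483 higher and 397 lower in NFSa, and one of at least 8-fold in 39 and 43 genes. In 3766 genes (28%) the 4 NFSa arrays and the 4 #8520 arrays did not overlap, with NFSa above in 1710 and below in 2056. The count rests on the arm block, since 2987 genes were called with no arm in the model. Between the untreated carcinomas NR-S1 and SCCVII the same design called 7698 of 13449 genes (57.2%), of which 2716 differed at least 2-fold.

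The leading genes below were taken as the 15 with the largest difference each way among called genes whose tumours did not overlap and whose brighter tumour lay above the median gene, so the lack of overlap is part of the choice. Those that set NFSa furthest above #8520 included a collagen chain, a developmental transcription factor and secreted ligands. Zic1, a zinc finger transcription factor of the developing hindbrain and somites, measured 4.01, 4.0, 3.93 and 3.98 in NFSa, against -2.44, -2.56, -2.84 and -2.96 in #8520. The groups lay far apart and the arrays within each tumour close together, and the difference of 6.68 ± 0.092 (SE) was 103-fold (limma adjusted p = 3.1e-10). In the carcinomas Zic1 averaged -2.45 ± 0.71 in NR-S1 and -2.81 ± 1.42 in SCCVII (SD, n = 4 arrays each), so that NFSa alone of the 4 tumours held it at a high level. Col6a5, a chain of microfibril-forming collagen VI, measured 4.98, 4.95, 4.07 and 3.94 in NFSa, against -3.59, -2.19, -2.91 and -2.62 in #8520, a difference of 7.31 ± 0.30, although a second probe of this gene differed by only 0.54. Slit3, a secreted ligand of Robo receptors, measured 4.52, 4.58, 4.21 and 4.02 in NFSa, against -0.30, -0.18, -0.41 and -0.44 in #8520. Bmp4, a ligand of the bone morphogenetic protein pathway, measured 4.32, 4.27, 3.7 and 3.55 in NFSa, against 0.22, 0.36, 0.16 and 0.38 in #8520, a 12.8-fold difference with adjusted p = 4.2e-08. Actg2, the smooth muscle gamma-actin, was 14.99-fold higher, Wfdc2, a secreted whey acidic protein, 28.1-fold, and Baiap2l1, a protein that bends membranes over actin, 48.99-fold. Rpl39l, a paralogue of ribosomal protein L39 known from testis, differed by 5.51, Tinagl1, a matrix protein, by 4.69, Gjb5, a connexin, by 4.36, and Sncg, gamma-synuclein, by 4.02. Mfsd4b5 (4.63, with a second probe at -0.23), Tnfrsf26 (4.56), Aspa, aspartoacylase (4.38), and Xlr (4.36) completed the 15, and Xlr and Rpl39l belong to families whose members a probe could share.

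The genes furthest below #8520 included signalling peptides and transcription factors. Penk, which encodes the precursor of the enkephalins, measured -0.62, -0.86, -0.45 and -0.17 in NFSa, against 4.24, 4.3, 4.03 and 4.29 in #8520. The SD over 4 arrays was 0.29 in NFSa and 0.13 in #8520, and Penk was 26.7-fold lower in NFSa, with a difference of -4.74 ± 0.13 and adjusted p = 9.9e-09. Tfap2c, a transcription factor of trophoblast and epithelium, lay below the intensity floor (the highest 5th percentile of the 8 arrays) in NFSa and was at least 97.1-fold lower, and Rgs17, a brake on G protein signalling, was at least 115-fold lower, with other probes at -3.02 and -1.24. Tcfl5, a basic helix-loop-helix factor of germ cells, measured -2.72, -2.91, -1.14 and -1.4 in NFSa, against 4.14, 4.31, 3.99 and 4.2 in #8520. The gamma NFSa arrays lay above the carbon-ion ones, and the difference was larger in the carbon-ion arm (-7.04) than in the gamma arm (-5.37), with an adjusted interaction p of 6.5e-06. Angptl7, a secreted angiopoietin-like protein, differed by -5.45, Inmt, an indolethylamine methyltransferase, by -5.09, Crhbp, which binds corticotropin-releasing hormone, by -4.62, and Slc14a1, a urea transporter, by -4.17. Sdk1, a cell adhesion molecule (-5.32, with another probe at -4.06), Ptchd1 (-4.61), Prdm8, a transcriptional repressor (-4.3), Unc13c, a regulator of vesicle release (-4.24), Brinp1 (-4.19) and Tmem98 (-4.06) were also among the 15, with Xist described below. All 30 leading genes kept their direction and their call in each of the 19 alternatives tried. Their choice, on these same arrays, for large differences without overlap favours that outcome.

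**Figure D1:**
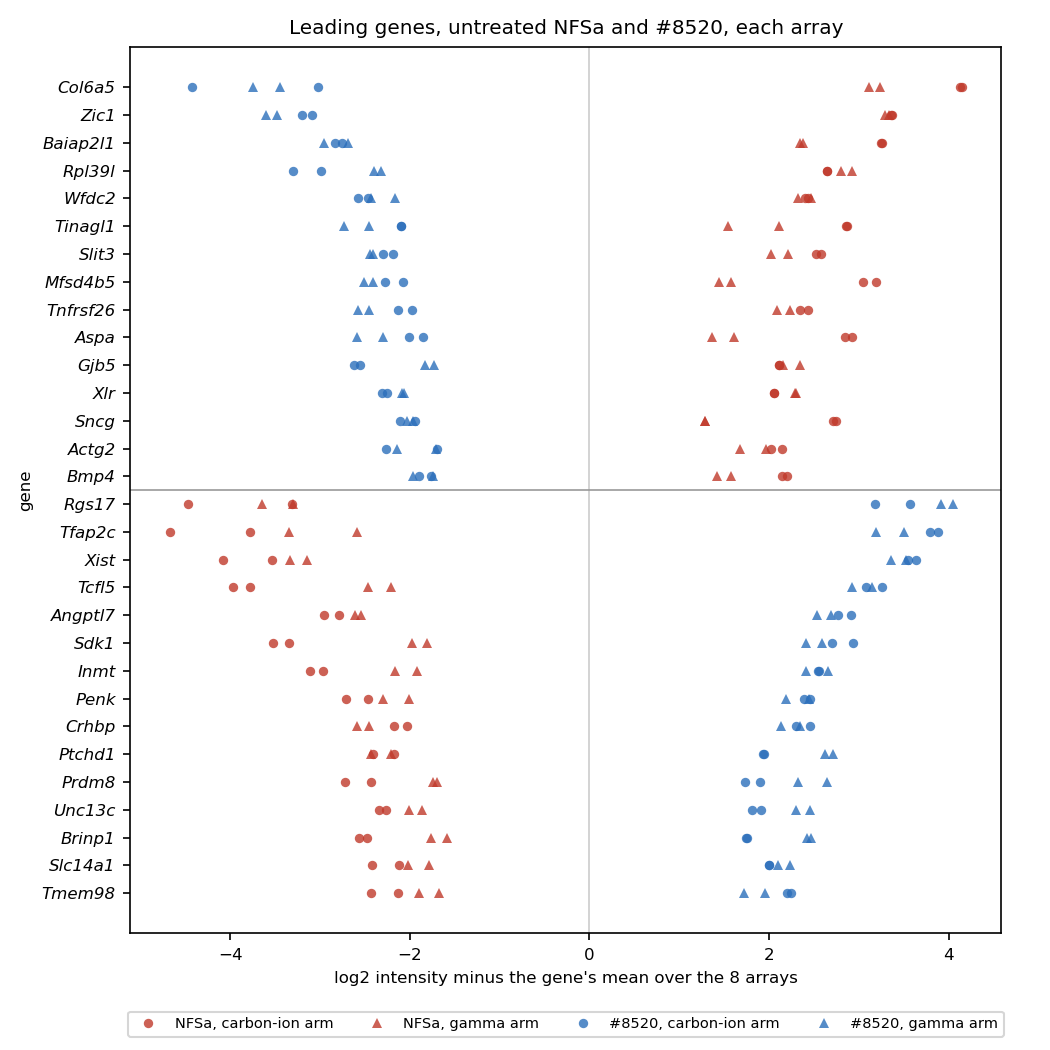
Log2 intensity of the 30 leading genes (rows) on each of the 8 untreated arrays, as the distance from the gene's mean over the 8 arrays (x axis), NFSa in red and #8520 in blue, circles for the carbon-ion arm and triangles for the gamma arm. The genes were chosen for tumours that do not overlap, and the differences run between 3.68 (Bmp4) and 7.31 (Col6a5) for the genes higher in NFSa and between -7.36 (Rgs17) and -4.06 (Tmem98) for the lower ones.

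Xist, the RNA that coats the inactive X chromosome in female cells, measured -4.09, -3.54, -3.15 and -3.34 in NFSa, against 3.63, 3.54, 3.36 and 3.52 in #8520. The #8520 arrays were close together and the NFSa arrays lay far below them. In the carcinomas it averaged 3.09 ± 0.28 in NR-S1 and -3.43 ± 0.80 in SCCVII. A second Xist probe, dim in both tumours, differed by 0.10. The Y-linked genes Uty (0.05), Zfy1 (0.02), Usp9y (0.04) and Eif2s3y (0.25) were not called, and Kdm5d, a Y-linked demethylase, was called higher by 0.57, a call that ended with no arm in the model.

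The Hox genes differed in both directions. Of 27 tested, 8 were called higher and 8 lower in NFSa, against 16.5% and 22.7% of all genes. The lower ones included posterior genes of the HoxA cluster. Hoxa10 measured -0.36, -0.25, -1.11 and -1.03 in NFSa, against 3.23, 3.39, 3.12 and 3.13 in #8520, and Hoxa11 measured -2.45, -2.38, -2.22 and -2.14 in NFSa, against 1.34, 1.32, 1.64 and 1.74 in #8520. Neither gene overlapped between the tumours, and they were 14.99-fold and 14.02-fold lower in NFSa with adjusted p of 1.4e-08 and 1.2e-09. Hoxa9 differed by -2.49 ± 0.097 and Hoxa5 by -1.93 ± 0.11, while Hoxa7 (-0.06) and Hoxa3 (-0.16) were not called. Hoxb2 ran the other way, with 0.79, 0.96, 1.32 and 1.04 in NFSa, against -2.23, -2.48, -1.94 and -1.97 in #8520, a difference of 3.18 ± 0.097, and Hoxb7 (1.94), Hoxd8 (1.84), Hoxc8 (1.09) and Hoxc6 (0.89) were also higher. In the carcinomas, Hoxa10 averaged -0.73 ± 0.14 in NR-S1 and 3.1 ± 0.38 in SCCVII, and Hoxa9 -2.16 ± 0.26 and 0.55 ± 0.46, so NR-S1 lay near NFSa and SCCVII near #8520 at both genes. Over the list the median difference was -0.03, against -0.05 over all genes. The count of higher Hox genes was 5 with a replicate block or without NFSa carbon-ion replicate 2, and the count of lower ones was 4 with the dimmest 50% of genes left out.

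**Figure D2:**
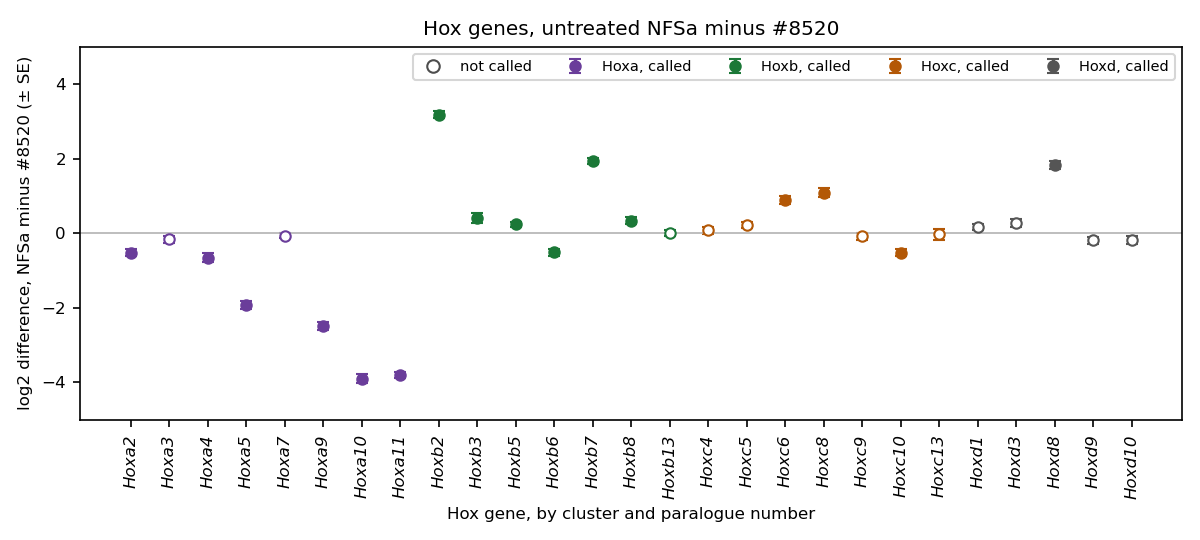
Log2 difference, NFSa minus #8520, with its SE (error bars) for the 27 Hox genes tested, in the order of the HoxA, HoxB, HoxC and HoxD clusters and of the paralogue numbers. Filled points were called and open points were not, and Hoxa5, Hoxa9, Hoxa10 and Hoxa11 lie between -3.91 and -1.93, and Hoxb2 at 3.18.

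Other transcription factors of mesenchyme and skeleton differed as well. Sox9, the master regulator of cartilage, measured -3.43, -3.34, -2.68 and -2.8 in NFSa, against 1.5, 0.87, 1.58 and 1.48 in #8520, without overlap, and was 21.4-fold lower in NFSa (adjusted p = 1.3e-08). Foxc2, a forkhead factor of mesoderm and lymphatic vessels, measured 1.72, 1.6, 1.57 and 1.51 in NFSa, against 5.25, 4.9, 4.79 and 5.0 in #8520, a 10.4-fold lower level. Osr1 (-1.92), Osr2 (-1.82) and Pax6 (-1.69) were also lower, and Wt1 (1.36) and Prrx2 (1.27) were higher. The list of 28 mesenchymal transcription factors, which does not hold Sox9, had 7 higher, 8 lower and a median of 0.10. The cartilage and bone list, with Sox9 the furthest below, had 2 higher and 3 lower of 11. Over all genes 16.5% were higher and 22.7% lower. Nefl, the light neurofilament chain, was 30.05-fold lower, and the adhesion molecule Cdh11 of osteoblasts and fibroblasts differed by -3.5 ± 0.17. Krt8 (3.22 ± 0.21) and Krt14 (2.64 ± 0.15), keratins of simple and of basal epithelium, were higher in NFSa with Cdh1, the epithelial cadherin (0.97 ± 0.099), while Epcam (0.12), Trp63 (0.07) and Krt6a (0.15) were not called. Of 10 keratinocyte genes tested, 4 were called, all higher, and 1 or 2 were with NFSa arrays left out one at a time. Thy1, a glycoprotein of fibroblasts and T cells, measured 3.33, 3.4, 3.23 and 3.08 in NFSa, against 0.12, -0.16, -0.14 and -0.13 in #8520, a 10.1-fold difference, with 3.39 in one arm (carbon ions) and 3.29 in the other.

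The collagen list had more members higher in NFSa, with 10 of 21 called higher, 2 lower and a median of 0.33. Col6a1 measured 7.05, 7.05, 6.06 and 5.88 in NFSa, against 4.1, 3.91, 4.0 and 4.08 in #8520, without overlap, a 5.62-fold difference (adjusted p = 9.1e-06), and its partner chain Col6a2 differed by 2.02 ± 0.13, while Col6a3 (-0.05) was not called. Col1a1 measured 5.13, 5.22, 4.75 and 4.48 in NFSa, against 3.6, 2.9, 2.47 and 2.57 in #8520, a difference of 2.01 ± 0.14, and Col1a2 differed by 1.22 ± 0.075. The proteoglycan Prelp, which anchors basement membranes, measured 2.2, 2.13, 1.05 and 0.92 in NFSa, against -2.51, -2.86, -2.72 and -2.29 in #8520, which is a difference of 4.17 ± 0.25, and the small leucine-rich proteoglycans Omd (1.73), Aspn (1.68) and Fmod (1.59) were higher as well. Decorin, Dcn, which binds collagen fibrils, was the member called lower (-1.33 ± 0.11) among 5 higher and 1 lower of 10. Of 23 matrix glycoproteins, 10 were higher and 5 lower, with Thbs4 (2.63) and Thbs2 (2.6), both thrombospondins, and Mfap2 (2.22), a microfibril protein, on the higher side and Fn1, fibronectin (-1.32), and Fbn2, fibrillin (-1.55), on the lower. Fbln1 differed by 2.21 on the probe kept and by -0.05 on a second probe.

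The enzymes that process matrix went both ways. P4ha3, a subunit of collagen prolyl hydroxylase (2.24 ± 0.10), Pcolce2, an enhancer of procollagen cleavage (1.92), and Lox, which crosslinks collagen and elastin (1.54), were higher, and Plod2, a lysyl hydroxylase (-1.15), was lower, among 6 higher and 3 lower of 15. The stromelysin and collagenase genes Mmp13 (-2.08 ± 0.19), Mmp10 (-2.01 ± 0.072) and Mmp3 (-1.55 ± 0.12) were lower, while Adamts5, an aggrecanase (1.75 ± 0.084), and Mmp9 (1.16) were higher, among 9 higher and 7 lower of 22. Itga11, the alpha chain of a collagen receptor of fibroblasts, differed by 1.92 ± 0.11. It was the furthest above in a list of 21 laminin and integrin genes with 3 higher, 8 lower and a median of -0.05. Among contractile genes Actg2 stood apart from Des, desmin (-1.04), and Tagln, transgelin (-0.87), with 5 of 15 higher and 6 lower. Skeletal muscle genes were lower in 11 of 25 and higher in 3, with a median of -0.44. Over all genes 16.5% were higher and 22.7% lower. Summed intensity of the skeletal muscle genes ranged from 464 to 646 on NFSa arrays and from 573 to 825 on #8520 arrays. In bulk tumours fewer cells of a type and less RNA per cell cannot be told apart, and the part of host muscle in these results was not tested.

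Ligands of several growth pathways differed in opposite directions. Among 36 Wnt pathway genes 8 were higher and 9 lower, near the shares of 16.5% and 22.7% over all genes. Wnt2 (-1.66, -1.76, -2.04 and -2.33 in NFSa, against 1.45, 1.51, 1.11 and 1.02 in #8520) and Wnt5a, a ligand of non-canonical Wnt signalling (-0.62, -0.56, -0.76 and -0.82 in NFSa, against 2.26, 1.95, 2.3 and 2.07 in #8520), were lower in NFSa without overlap between the tumours. They differed by -3.22 ± 0.086 and -2.84 ± 0.10. The R-spondins, which raise Wnt receptor levels, were lower too, with Rspo3 at -2.0 and Rspo2 at -2.17 on the probe kept and -0.13 on another, and so was the inhibitor Dkk2 (-1.85), while the secreted Dkk3 was higher (1.12). With the dimmest 50% of genes left out, 1 Wnt gene was called higher and 2 lower, and 4 were called higher with no arm in the model. Beside Bmp4, Bmp6 (2.05 ± 0.14) was higher, and so were Id1 (1.37 ± 0.15) and Id3 (1.35 ± 0.11), which BMP signalling is known to induce, among 10 higher and 7 lower of 30 (3 lower with no arm in the model). Bmp7 was lower (-1.11).

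Growth factors and their receptors went both ways, with 11 higher and 13 lower of 43, against 16.5% and 22.7% of all genes. Their median was -0.0049. Hgf, hepatocyte growth factor, measured 0.18, 0.18 and 0.76 in NFSa, against 2.27, 2.27, 2.01 and 2.09 in #8520, with 1 NFSa value missing, and its receptor gene Met differed by -1.44. The NFSa arrays lay below the #8520 arrays at Hgf without overlap, and Axl (-1.49) and Tyro3 (-1.78), kinases that bind Gas6, were lower with them. The ligand gene Pdgfd differed by -2.22 ± 0.083, and the receptor gene Pdgfrb by 1.29 ± 0.12, in opposite directions. Igf2 (1.20) and Igfbp6, which binds insulin-like growth factor II (1.5), were higher and Igf2r, the receptor that clears it (-1.20), was lower. The count of lower ones was 8 with no arm in the model. Egr1, an immediate early gene downstream of Ras signalling, differed by -1.16 ± 0.16, and 7 of 16 feedback genes of that pathway were lower and 2 higher, with 4 lower when the model had no arm.

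In the fit of both arms, cyclin, mitosis and replication genes were lower in NFSa where they were called, mostly by less than 2-fold. In the gamma arm alone 18 of 25 mitosis genes and 16 of 20 replication genes were lower, against 29.1% of all genes. Neither list had a gene called higher there. In the carbon-ion arm alone 4 mitosis genes were lower and 3 higher, and 3 replication genes were lower and 2 higher. Among cyclin, Myc and E2F genes 8 were lower and 2 higher for the carbon-ion arm, and 11 and 1 for the gamma arm. Ccnd2, cyclin D2, measured 1.76, 1.76, 3.13 and 3.01 in NFSa, against 4.12, 4.38, 4.26 and 4.64 in #8520, without overlap, and was 3.83-fold lower (adjusted p = 6.9e-05). Mycn differed by -1.87 ± 0.12 and Ccne1, cyclin E1, by -1.11 ± 0.11, and Myc by 0.49 ± 0.19 (not called, adjusted p = 0.071). Of 19 cyclin, Myc and E2F genes, 10 were called, all lower, with a median of -0.26, and 5 were lower with no arm in the model. Cdkn2b, the inhibitor p15, was higher (1.25 ± 0.13), Cdkn1a, the inhibitor p21, differed by -0.11 ± 0.11 and was not called, and Cdkn2a was too dim to be tested. Of 25 mitosis genes, 9 were called, all lower, led by Kif23, a kinesin of cell division (-1.02), and Cdc25c, a phosphatase that opens mitosis (-0.84). All 9 calls ended with no arm in the model, and the count was 5 with a replicate block or without either NFSa gamma replicate 1 or #8520 gamma replicate 2. Of 20 replication genes 8 were called, all lower, with Mcm7, a helicase subunit (-1.51 ± 0.21), the furthest, and 3 were lower with no arm in the model. Of 27 DNA repair genes 11 were lower and 2 higher, and 7 were lower with no arm in the model or without either gamma replicate of #8520. Xrcc5, which encodes the Ku80 subunit of the end-joining complex, measured -0.67, -0.59, -2.89 and -2.42 in NFSa, against 1.07, -0.40 and -0.96 in #8520, where 1 carbon-ion value is missing and the groups overlap. Its difference was -1.87 ± 0.17 (adjusted p = 4.0e-05), and Ercc1, a nuclease subunit of excision repair, differed by -1.22 ± 0.074. Xrcc6, the Ku70 partner of Xrcc5, differed by 0.03 and was not called, and Xrcc5 was not called with no arm in the model.

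**Figure D3:**
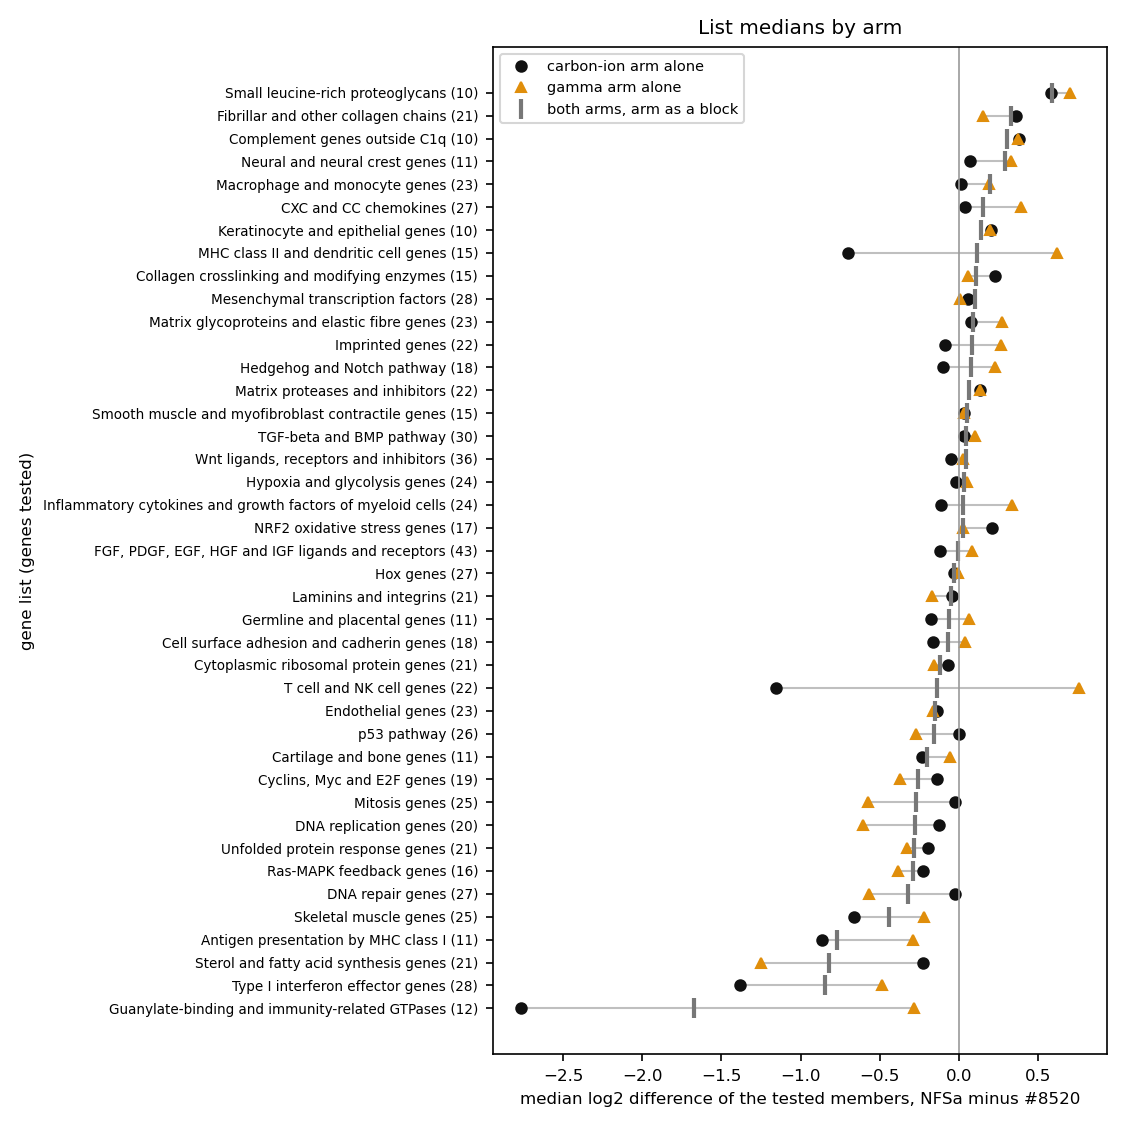
Median log2 difference, NFSa minus #8520 (x axis), of the tested members of each gene list with at least 10 tested genes (rows, number tested in brackets), for the carbon-ion arm alone (circles), the gamma arm alone (triangles) and both arms with the arm as a block (bars). The guanylate-binding and immunity-related GTPases lie at -2.77 for the carbon-ion arm and -0.28 for the gamma arm, and the T cell and NK cell genes at -1.16 and 0.76.

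Over both arms, interferon-inducible genes were lower in NFSa in 3 lists. The size of the difference, and for some genes its direction, depended on the arm. Of 28 type I interferon effector genes, 21 were called, all lower in NFSa, with a median of -0.85, against -0.05 over all genes. Of 12 guanylate-binding and immunity-related GTPases, which attack intracellular microbes, 8 were called, all lower, with a median of -1.68, and of 11 MHC class I presentation genes 10 were called, all lower, with a median of -0.77. In the carbon-ion arm alone 25 interferon genes, all 12 GTPases and all 11 MHC class I genes were lower, against 21.4% of all genes. In the gamma arm alone 15 interferon genes were lower and 2 higher, and 6 GTPases were lower and 3 higher. There 5 MHC class I genes were lower and 0 higher, and 29.1% of all genes were lower and 19.7% higher. With no arm in the model 4 of the GTPases and 6 of the MHC class I genes were called, and 5 of the GTPases were called with an intensity trend and a robust prior.

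Stat2, a subunit of the transcription complex that type I interferon activates, was the type I interferon gene with the largest difference. It measured 1.68, 1.83, 1.88 and 1.98 in NFSa, against 3.48, 3.55, 3.38 and 3.34 in #8520, without overlap, and differed by -1.59 ± 0.092 (adjusted p = 9.7e-07), with -1.76 for the carbon-ion arm and -1.43 for the gamma arm. Its partner Irf9 differed by -0.84 for the carbon-ion arm and -0.83 for the gamma arm. Mx2, an antiviral GTPase, differed by -1.49 ± 0.17, and Tap1, which carries peptides to MHC class I, by -1.41 ± 0.24.

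Gbp2, a guanylate-binding protein, measured 1.63, 1.73, 2.97 and 2.79 in NFSa, against 4.61, 4.73, 4.07 and 4.08 in #8520. The carbon-ion NFSa arrays lay below all other arrays, and the difference was -2.99 for the carbon-ion arm and -1.19 for the gamma arm (interaction in limma, adjusted p = 6.6e-07). Gbp3 differed by -2.97 and -0.77, and Igtp, an immunity-related GTPase, by -3.34 and -0.35. Iigp1 measured 1.69, 1.9, 5.34 and 5.14 in NFSa, against 5.94, 6.03, 5.65 and 5.81 in #8520, and Cxcl9, a chemokine that interferon gamma induces, differed by -4.81 for the carbon-ion arm and 0.094 for the gamma arm. The calls of Iigp1, Igtp, Cxcl9 and Cxcl10, another such chemokine, ended with no arm in the model and with the robust prior.

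The promoters of 4 called genes of the first 2 lists that hold the interferon-stimulated response element core are printed from RefSeq (build GRCm38.p6). This element is bound by the complex that contains Stat2. The 4 genes are a selection and not those with the largest difference. Iigp1, which had the largest difference of the GTPases (-2.34), is not among them, and whether its promoter holds the core is not given here. Each runs from 250 bases before to 50 after the start, on the plus strand, and capitals mark the core GAAANNGAA read on either strand. Gbp2 lies at chr3:142620413-142620712, Gbp3 at chr3:142559794-142560093, Igtp at chr11:58199306-58199605 and Stat2 at chr10:128270248-128270547.
Gbp2: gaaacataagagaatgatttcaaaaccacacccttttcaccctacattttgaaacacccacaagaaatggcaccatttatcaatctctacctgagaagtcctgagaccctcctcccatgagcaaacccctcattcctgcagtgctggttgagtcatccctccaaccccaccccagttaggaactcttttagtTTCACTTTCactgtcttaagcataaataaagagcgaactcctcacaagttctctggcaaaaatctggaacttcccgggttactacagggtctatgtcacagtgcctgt
Gbp3: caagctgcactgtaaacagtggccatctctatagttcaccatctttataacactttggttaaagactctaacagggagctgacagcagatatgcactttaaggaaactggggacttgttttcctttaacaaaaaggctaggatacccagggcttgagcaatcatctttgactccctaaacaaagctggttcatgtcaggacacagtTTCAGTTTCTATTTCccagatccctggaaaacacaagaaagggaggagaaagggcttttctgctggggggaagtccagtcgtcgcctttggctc
Igtp: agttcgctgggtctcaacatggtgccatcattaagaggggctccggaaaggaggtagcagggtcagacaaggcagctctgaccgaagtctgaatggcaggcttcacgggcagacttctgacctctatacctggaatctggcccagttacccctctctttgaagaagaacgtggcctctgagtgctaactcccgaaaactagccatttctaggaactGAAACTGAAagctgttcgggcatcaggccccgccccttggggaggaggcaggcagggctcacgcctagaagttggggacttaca
Stat2: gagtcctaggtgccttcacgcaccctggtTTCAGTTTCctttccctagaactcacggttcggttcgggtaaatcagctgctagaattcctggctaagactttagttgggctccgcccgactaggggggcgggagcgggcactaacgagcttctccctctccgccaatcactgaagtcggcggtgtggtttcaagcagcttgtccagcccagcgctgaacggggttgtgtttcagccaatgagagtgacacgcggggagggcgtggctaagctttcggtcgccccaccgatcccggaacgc
The core starts 58 bases before the start of Gbp2, 34 before that of Igtp and 221 before that of Stat2, and Gbp3 has 2 overlapping copies 44 and 38 bases before. It was present in 12 of 23 promoters of 20 interferon genes (52.2%) and 7 of 9 promoters of 8 GTPases (77.8%), against 2812 of 32851 promoters of all genes (8.56%). The gamma-activated site TTCNNNGAA was in 5 of 23 (21.7%) and 4 of 9 (44.4%), against 8.3% of all. These matches describe the letters of the window only.

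In the medians of the lists below, the arm difference lay mainly in NFSa. Within NFSa the carbon-ion arrays minus the gamma arrays gave a median of -2.53 over the GTPases, -0.86 over the interferon genes and -2.12 over 22 T cell and NK cell genes. Within #8520 the same medians were -0.0029, 0.08 and -0.05. Single genes did differ between the arms there. Of the 28 interferon genes, 7 were called higher and 3 lower in the carbon-ion arrays of #8520. Over all genes 34.9% were called within #8520, in either direction. Summed intensity of the GTPases was 99.1 and 97.3 on the carbon-ion NFSa arrays and 471 and 441 on the gamma NFSa arrays, against 498 to 584 on the #8520 arrays. Summed intensity of the T cell and NK cell genes was 39.7 and 39.2 on the carbon-ion NFSa arrays and 162 and 154 on the gamma NFSa arrays, against 70.1 to 75.7 on the #8520 arrays.

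In the T cell and NK cell list the tumour difference changed its sign between the arms. Taking the carbon-ion arm alone, 18 of the 22 genes were lower in NFSa, against 21.4% of all genes, and taking the gamma arm alone 20 were higher, against 19.7% of all genes. Cd8a, a chain of the killer T cell coreceptor, differed by -2.5 for the carbon-ion arm and 0.61 for the gamma arm, and Gzma, a granzyme of killer cells, by -1.74 and 2.3. Across both arms 2 of the 22, Thy1 and Cd4 (0.39), were called. The MHC class II and dendritic cell genes likewise had a median of -0.70 for the carbon-ion arm and 0.62 for the gamma arm. The level of T cell and NK cell genes moved with the interferon-inducible genes within NFSa, and its part in the result was not tested. Macrophage genes were higher in 6 of 23 and lower in 2, against 16.5% and 22.7% of all genes, with a median of 0.20. They too depended on the arm, with 6 higher and 6 lower in the carbon-ion arm, 9 higher and 2 lower in the gamma arm, and an interaction in 9. Among them were Mrc1, the mannose receptor, higher (1.18) and Apoe, the lipid carrier, lower (-1.49). The count of higher macrophage genes was 3 with no arm in the model, 10 after quantile normalization and 13 with all 16 untreated or all 88 arrays in the fit, where 11 and 10 T cell and NK cell genes were called lower.

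**Figure D4:**
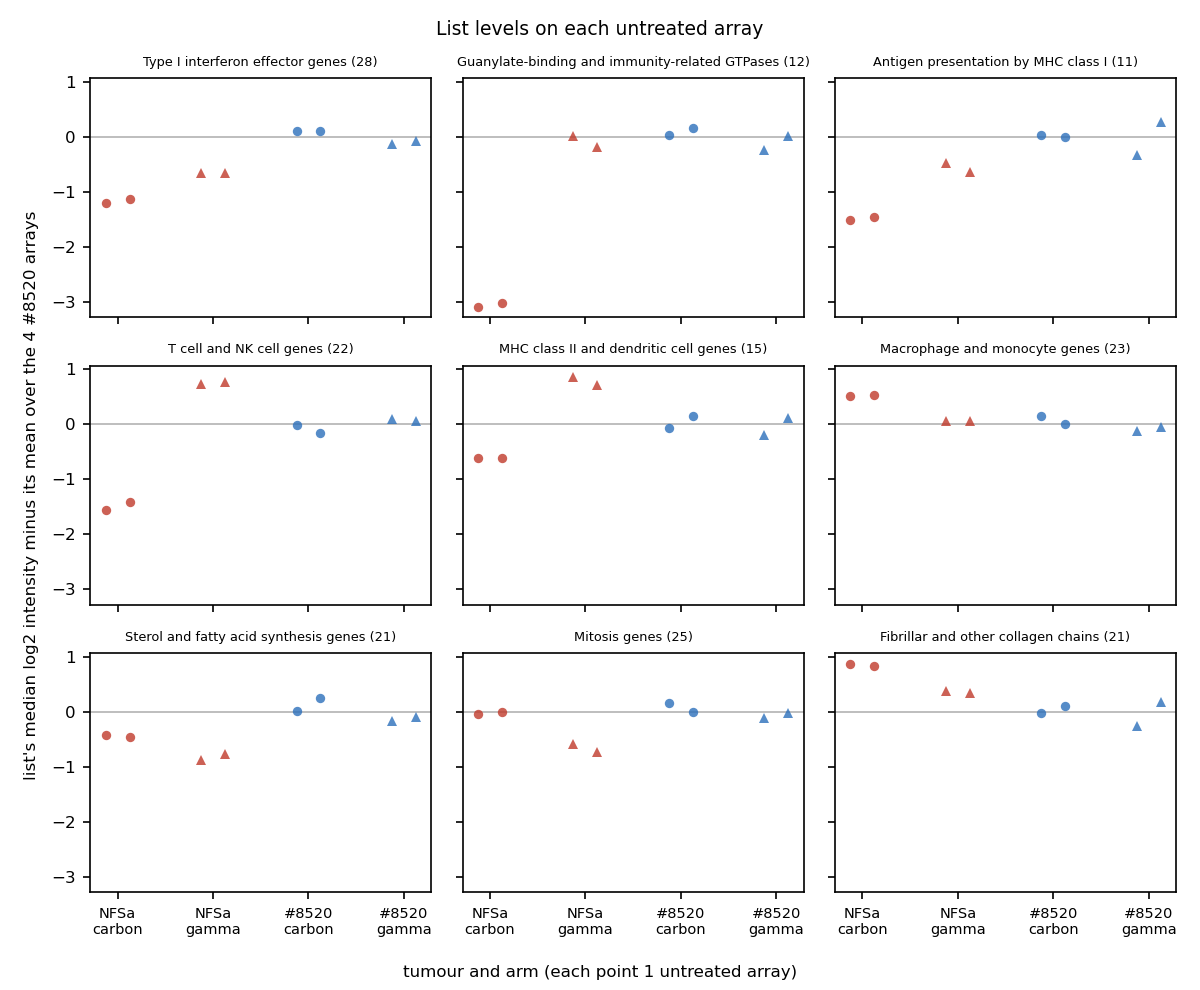
Median log2 intensity of each of 9 gene lists (panels, number tested in brackets) on each untreated array, minus its mean over the 4 #8520 arrays (y axis), with circles for the carbon-ion arm and triangles for the gamma arm, NFSa in red and #8520 in blue. The carbon-ion NFSa arrays lie lowest for the GTPases and the T cell and NK cell genes, whereas the gamma NFSa arrays lie lowest for the sterol and mitosis genes.

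Sterol synthesis genes showed the opposite dependence. Of 21 sterol and fatty acid synthesis genes, 18 were called, all lower in NFSa, with a median of -0.82, and their median was -0.23 for the carbon-ion arm and -1.25 for the gamma arm. Mvd, an enzyme of the mevalonate pathway, measured 2.35, 2.33, 1.73 and 1.7 in NFSa, against 2.96, 2.84, 3.35 and 3.41 in #8520, a difference of -1.11 ± 0.19, and Lss, which closes the sterol ring, measured 1.58, 1.51, 0.28 and 0.46 in NFSa, against 2.1, 2.09, 1.92 and 2.15 in #8520. For both genes the gamma NFSa arrays were the lowest of the 8. The difference of Msmo1, a sterol demethylase, was -0.37 for the carbon-ion arm and -1.79 for the gamma arm. Srebf1, a regulator of lipid synthesis (-0.99), and Fasn, fatty acid synthase (-0.76), were lower with the pathway, while Srebf2 (0.19) and Dhcr7 (0.05) were not called. The count of lower genes was 7 with no arm in the model and 11 without #8520 gamma replicate 2. Within NFSa the carbon-ion arrays exceeded the gamma arrays by a median of 0.85 over these genes and 0.73 over the mitosis genes, against -0.0019 and 0.21 within #8520.

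The gamma arm gave more calls over all genes than the carbon-ion arm. In the carbon-ion arm alone 5394 genes (40.1%) were called, 2522 higher (18.8%) and 2872 lower (21.4%) in NFSa. In the gamma arm alone 6556 were called (48.8%), 2647 higher (19.7%) and 3909 lower (29.1%). The tumour difference itself differed between the arms in 3134 genes (23.3%), a count that was 1767 without NFSa carbon-ion replicate 2. The carbon-ion arrays differed from the gamma arrays in 5132 genes (38.2%) over both tumours, in 6444 genes (48%) within NFSa, of which 886 by at least 2-fold, and in 4693 genes (34.9%) within #8520, of which 222 by at least 2-fold. Of the genes called in both arms, 3238 had the same sign in each and 367 had opposite signs. Of the 880 genes called at 2-fold or more, a choice made on the mean of both arms, 358 differed between the arms.

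**Figure D5:**
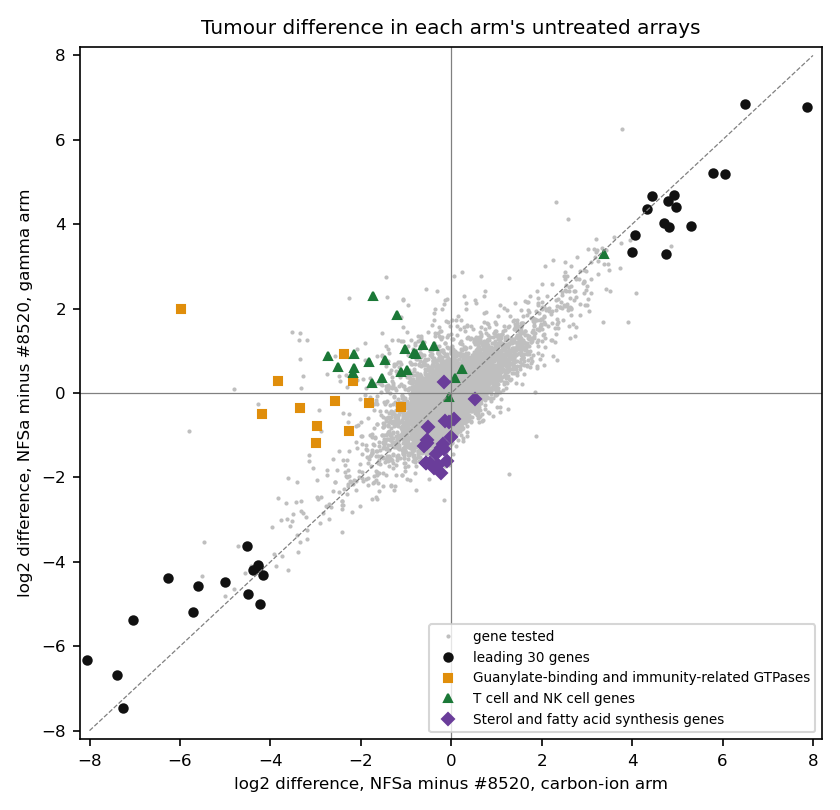
Log2 difference, NFSa minus #8520, of each gene tested in the carbon-ion arm's untreated arrays (x axis) and in the gamma arm's (y axis), with the 30 leading genes in black and 3 lists in colour, and the diagonal where the arms give the same value. The leading genes, chosen for large differences without overlap over both arms, lie along the diagonal. The T cell and NK cell genes lie mostly in the upper left quadrant and the sterol genes mostly below 0 in the gamma arm.

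The 36 irradiated arrays of the 2 tumours, none of which entered the fit of the 8 untreated arrays (they served above in the choice of each gene's probe and in the alternative with all 88 arrays), gave the same measure under 9 further conditions. Of the 880 genes called at 2-fold or more, 614 (69.8%) had the same sign in all 9 conditions, 464 were called with that sign in all 9, and 163 were called with the opposite sign in at least 1. At 50 Gy gamma on day 1 and day 3, where the median over 21 ribosomal protein genes was -0.63 and -0.60 (-0.12 to 0.13 in the other 7 conditions), 9374 and 8763 genes were called, more than in any other condition. Without these conditions 663 of the 880 had the same sign and 519 were called with it in the remaining 7. Of all 5265 called genes, 747 (14.2%) were called with the same sign in all 9. Of the 30 leading genes, 29 were, and the remaining one, Unc13c, in 8. Zic1 ranged over 5.05 to 7.69 across the 9 conditions, Penk over -4.68 to -2.73 and Hoxa10 over -4.4 to -3.14. Bmp4 ranged over 1.2 to 3.51 and Col6a1 over 1.51 to 2.59, so that neither changed its sign. The interferon list did not keep its sign, with condition medians from -2.27 (gamma 30 Gy, day 1) to 0.94 (gamma 30 Gy, 6 h), and the GTPase list ranged from -2.88 to 2.42 at the same pair of conditions. The sterol list ranged from -0.68 to 0.29, and up to 0.16 without those 50 Gy conditions. Stat2 ranged over -2.0 to 0.70 and was called lower in 6 of the 9 conditions, and Hgf ranged over -2.06 to 0.69 and was called lower in 6.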

How the data were processed

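The values were deposited by the authors as fluorescence intensity on a linear scale, 1 value per probe and array, with array medians near 1. Total RNA was labelled by the CodeLink protocol with Cy5, per the labels' protocols. Not given in the sources used here were the scanner software, the background correction and the scaling. For this comparison, from the deposited intensity values, log2 was taken with no offset, and values not above 0 (0.182% on the 8 arrays) and missing values (0.816%) were left out, so that a fit drops those arrays for that gene (356 genes). Of 36227 probes, 21615 have 1 gene symbol, 681 several and 13931 none in the platform annotation, and 21487 probes were matched through their Entrez number. The probe with the highest mean over all 88 arrays stood for each of 18067 genes (3002 with several). Genes under the 25th percentile (log2 -1.545) in mean over the 8 arrays, or with under 3 values in a tumour, were left out, leaving 13438.

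limma 3.58.1 in R 4.3.3 fitted tumour with the arm as a block (lmFit, eBayes, two-sided, Benjamini-Hochberg over all 13438 genes, called under 0.05), with 5 residual and 4.51 prior degrees of freedom. Within-arm differences, their interaction and arm differences within a tumour came from a fit with a mean for each tumour and arm, and the irradiated conditions from a fit of all 88 arrays with 44 group means. Where the dimmer tumour's mean lay under the highest 5th percentile of the 8 arrays (log2 -3.87, intensity 0.0686), the fold is given against it as a bound. On simulated data with 200 changed genes among 13438, 83.3% of the changes of 0.5 (log2), and 100% of those of 1 and of 2, were recovered, and 6.44% of calls were unchanged genes. The simulation used the spread within each tumour and arm and gave no gene a tumour difference that depended on the arm. Such a dependence was called in 3134 genes here, so these rates do not hold for genes of that kind.

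The named genes were, among called genes whose tumours did not overlap and whose brighter tumour lay above the median of all genes, the 15 with the largest difference each way, up to 4 called members of each of 49 lists with the largest absolute difference, and Cdkn2a, Cdkn2b, Mtap, Trp53, Cdkn1a, Mdm2, Xist, Ddx3y, Myc, Vim, Pdgfra, Pdgfrb and Acta2. Other list members were named after their values were seen. The members and lists were chosen with earlier results of these data known. Trp53 and Ddx3y have no single-symbol probe here. Alternatives covered scaling, offset, dim filter, probe choice, the arm, a replicate block, the arrays in the fit, the moderation and leaving out each array. Replicate numbers are shared by the tumours within an arm. Deviations of same-numbered arrays correlated over genes at r = -0.06 for the carbon-ion arm and -0.28 for the gamma arm. With 2 arrays per tumour and arm, each correlation rests on a single deviation per tumour. It cannot show whether same-numbered arrays were handled together, which the labels do not state. Promoters are from RefSeq (GRCm38.p6).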

Additional observations from a re-analysis of the deposited data

Results flagged for a closer look

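The difference between NFSa and #8520 was itself different in the 2 arms in 3134 genes by the interaction test, and in 12 lists with at least 10 tested members more than 50% of the members had such a difference. The count was 12 of 12 among the guanylate-binding and immunity-related GTPases (medians -2.77 for the carbon-ion arm and -0.28 for the gamma arm), 21 of 28 among the type I interferon effector genes (-1.38 and -0.48), 7 of 11 among the MHC class I genes (-0.86 and -0.29), 18 of 22 among the T cell and NK cell genes (-1.16 and 0.76) and 10 of 15 among the MHC class II and dendritic cell genes (-0.70 and 0.62). It was 19 of 21 among the sterol and fatty acid synthesis genes (-0.23 and -1.25), 15 of 25 among the mitosis genes (-0.02 and -0.58), 12 of 20 among the DNA replication genes (-0.12 and -0.60) and 14 of 27 among the DNA repair genes (-0.03 and -0.57). It was 8 of 10 among the small leucine-rich proteoglycans (0.59 and 0.70), 14 of 25 among the skeletal muscle genes (-0.66 and -0.22) and 14 of 27 among the chemokines (0.04 and 0.40). What differed between the untreated tumours of the 2 arms is not stated in the labels, and its part in these results was not tested.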

How the results depend on the processing

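Of 201 called named genes, 160 kept their call and direction in all 19 alternatives, and no named gene reversed. The number of genes called was 2987 with no arm in the model. The number past 2-fold was 496 with the dimmest 50% of genes left out and 397 when tested against 2-fold with limma's treat. A replicate block called 3812 genes and, with the gamma numbers crossed (chosen after seeing the data), 4367. Leaving out each array in turn gave 4412 to 4943 genes called, and 1767 to 3362 with a difference that depended on the arm. Quantile normalization moved the median of the interferon list to -0.80 and of the mesenchymal transcription factors to 0.15. Leaving out each array moved the list medians over these ranges: Small leucine-rich proteoglycans 0.54 to 0.64, Matrix glycoproteins and elastic fibre genes 0.046 to 0.18, Smooth muscle and myofibroblast contractile genes -0.040 to 0.10, Skeletal muscle genes -0.45 to -0.30, Fat cell genes 0.034 to 0.30, Cyclins, Myc and E2F genes -0.32 to -0.22, Mitosis genes -0.40 to -0.19, DNA repair genes -0.41 to -0.23, Type I interferon effector genes -0.97 to -0.76, Guanylate-binding and immunity-related GTPases -1.91 to -1.26, MHC class II and dendritic cell genes -0.084 to 0.28, Neutrophil genes 0.19 to 0.38, T cell and NK cell genes -0.27 to -0.048, CXC and CC chemokines -0.039 to 0.20, Inflammatory cytokines and growth factors of myeloid cells -0.082 to 0.15, Pericyte genes 0.079 to 0.19, Sterol and fatty acid synthesis genes -0.91 to -0.64. The chemokine median reversed without NFSa gamma replicate 1, at -0.039. The number of arrays limits precision, low signal limits the size of the folds of dim genes, and 11 of the 33 named genes with several probes had a probe of the opposite sign. The cause of these shifts was not tested.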

Other observations

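Of 9 mast cell and eosinophil genes tested, 4 were called, all higher in NFSa, with a list median of 0.06. Cpa3, the mast cell carboxypeptidase, measured 1.07, 1.13, 2.49 and 2.39 in NFSa, against 0.39, 0.26, 0.44 and 0.62 in #8520, a difference of 1.34 ± 0.20, and Fcer1a, a chain of the IgE receptor, differed by 1.23 ± 0.31, while Tpsb2 (0.03), Tpsab1 (-0.02) and Kit (0.02) were not called. The count was 2 with the dimmest 50% of genes left out, and Fcer1a was not called with no arm in the model. Complement genes outside C1q were called in 6 of 10, all higher, against 16.5% of all genes, and 3 were higher with no arm in the model. In the carbon-ion arm alone 7 were called higher and 2 lower, and in the gamma arm alone 6 higher and 0 lower. Serping1, the inhibitor of C1, differed by 0.97 ± 0.22 and Cd55, a regulator of complement on cells, by 0.93 ± 0.085. Ptgs2, the inducible cyclooxygenase, measured 0.26, 0.47, 0.061 and 0.094 in NFSa, against 2.81, 2.55, 2.17 and 1.93 in #8520, without overlap, and was 4.43-fold lower in NFSa. Jchain, which joins antibody chains in plasma cells, was lower (-2.3 ± 0.29 on the probe kept and -1.03 on another), and so was Mzb1, a plasma and B cell protein (-1.27 ± 0.12). Of 27 chemokines 11 were higher and 5 lower, against 16.5% and 22.7% of all genes, and the balance depended on the arm. In the carbon-ion arm alone 8 were higher and 10 lower, against 18.8% and 21.4% of all genes. In the gamma arm alone 14 were higher and 4 lower, against 19.7% and 29.1%. Over both arms Cxcl5 (2.0) and Ccl24 (1.51) lay the furthest above and Cxcl9 (-2.36) the furthest below. Apln, the ligand apelin of sprouting vessels, was lower (-1.65 ± 0.10), and Lyve1, a marker of lymphatic vessels, was higher (1.35 ± 0.24). Of 23 endothelial genes 2 were higher and 7 lower, against 16.5% and 22.7% of all genes. Cspg4, a pericyte proteoglycan, was higher (1.97 ± 0.24). Aox1, an aldehyde oxidase, was 3.02-fold higher, and 7 of 17 NRF2 genes were higher and 2 lower, with 4 higher when the model had no arm. Sgce, an imprinted gene of a membrane protein, was 5.95-fold higher and Rasgrf1, another imprinted gene, was lower (-2.07 ± 0.17 on the probe kept and -0.60 on another).

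Genes of 2 chromosomes were called higher in NFSa more often than those of the others. Of 814 genes tested on chromosome 4, 37.7% were called higher in NFSa and 10.8% lower, with a median of 0.145, and of 572 on chromosome 15, 33.2% and 8.74%, with a median of 0.144. On the other 18 chromosomes 10.8% to 21.9% were called higher and 11.6% to 31.7% lower, with medians from -0.125 to 0.06. Among these, chromosomes 8 and X had the largest shares lower, 31.7% and 31.1%, with 11.6% and 10.8% higher. The medians were 0.201 for the carbon-ion arm and 0.113 for the gamma arm for chromosome 4, and 0.159 and 0.143 for chromosome 15.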
